A study of Mus musculus with 2 samples.

Results

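Egfr, Erbb2 and Erbb3 encode 3 receptors of the ErbB family, and Lrig1, Errfi1, Spry2, Spry4 and Dusp6 encode 5 proteins that dampen signalling by these receptors or by the ERK pathway below them. These 8 genes were taken from the 31053 genes of the deposited matrix by their symbols, and all 8 were found. ErbB receptors bind ligands of the EGF and neuregulin families, pair with each other and start the RAS, ERK and PI3K cascades. Erbb2 has no known ligand of its own and Erbb3 has a weak kinase, so both act in pairs with other family members. In the intestinal crypt EGF drives the growth of stem and progenitor cells, organoid medium usually supplies it, and several of the inhibitors are themselves transcribed in response to the signal, which makes them feedback genes.

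The data came from mouse small intestinal organoids, epithelial structures grown from intestinal tissue, that were cultured with melatonin or left untreated as the control. Strain, age, dose and medium are not given in the sources used here. Cells of 3 organoid lines were pooled for each of the 2 libraries on culture day 3, and mRNA was counted by its 3′ ends with unique molecular identifiers (UMIs). The title of the study concerns melatonin, prostaglandin E2 and YAP in epithelial regeneration. The deposited files of the control and of the melatonin sample were identical, so they hold 1 matrix, in which each barcode ends in suffix 1 or suffix 2. No label ties a suffix to a treatment. The matrix was therefore handled as 1 sample, melatonin was not compared with control, and the direction of any difference between the suffixes is arbitrary.

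After filtering, 2300 of 12364 barcodes of suffix 1 and 1766 of 9442 of suffix 2 were kept as cells, with medians of 29872 and 28759 UMIs per cell. Of all barcode sequences, 29 occurred with both suffixes, and among the kept cells 0 did. Marker genes placed 1219 and 910 cells in a crypt class, 245 and 243 in an enteroendocrine class, 115 and 174 in an enterocyte class, 30 and 28 in a joint goblet or Paneth class and 14 and 23 in a revival class, named after regenerative cells of the injured intestine. A further 248 and 197 cells passed no gate, and 35 and 42 passed 2 or more and were labelled mixed. Tuft cells numbered 9 and 0, and 385 and 149 cells had under 5000 UMIs and were not classed. All of these stayed among the other cells when a class was compared with all other cells. The leading genes of the revival class include Crct1, Cnfn and Lor, genes of keratinising epithelium, beside its own markers. Mesenchymal markers were near 0: the summed level of 8 mesenchymal genes was 0.260 CPM in suffix 1 and 0.235 CPM in suffix 2, with 3 of the 8 at 0. The 8 immune genes summed to 8.60 and 8.80 CPM, of which Cd68 and Cd14 gave most (378 and 368 UMIs), while Ptprc, the common leukocyte antigen, was at 0, and the 5 endothelial genes to 4.93 and 3.23 CPM with 2 at 0.

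Levels are UMIs of a gene per 1000000 UMIs of the cells summed (CPM), with exact Poisson intervals at the 95% level in parentheses, which cover counting error only. Each captured transcript end counts once, so CPM was not divided by transcript length. Cells are not replicates and there is 1 sample, so there is no test and no p-value. A difference was called by size instead. Between suffixes it had to reach 1.5-fold, between a class and all other cells or between groups of enteroendocrine cells 2-fold in each suffix, and between ranges of cells 1.5-fold in each suffix, always on CPM plus 1 and with intervals that did not overlap.

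The sequences upstream of 3 of these genes are given because the results turn on them: Egfr and Dusp6 were called between cell classes, and Errfi1 and Dusp6 between ranges of immediate early gene and ligand transcripts within crypt cells. They are the 250 bases before the annotated starts in RefSeq, build GRCm38.p6, which held an entry for 6 of the 8 genes. Erbb3 and Spry4 had none. Egfr lies at chr11:16751953-16752202 on the plus strand, the downstream of the 2 Errfi1 starts at chr4:150854820-150855069 on the plus strand, and Dusp6 at chr10:99262981-99263230 on the plus strand. Capitals mark motif matches.
Egfr: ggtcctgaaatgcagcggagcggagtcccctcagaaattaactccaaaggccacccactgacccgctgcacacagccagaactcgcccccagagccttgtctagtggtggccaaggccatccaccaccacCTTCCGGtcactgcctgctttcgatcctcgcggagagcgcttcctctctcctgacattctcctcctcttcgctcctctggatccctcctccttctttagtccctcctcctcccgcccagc
Errfi1: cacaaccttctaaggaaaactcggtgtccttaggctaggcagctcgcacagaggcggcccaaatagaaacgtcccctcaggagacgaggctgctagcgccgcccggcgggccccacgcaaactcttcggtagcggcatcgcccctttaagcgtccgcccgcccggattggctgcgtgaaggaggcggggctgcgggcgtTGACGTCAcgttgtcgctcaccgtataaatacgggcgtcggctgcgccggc
Dusp6: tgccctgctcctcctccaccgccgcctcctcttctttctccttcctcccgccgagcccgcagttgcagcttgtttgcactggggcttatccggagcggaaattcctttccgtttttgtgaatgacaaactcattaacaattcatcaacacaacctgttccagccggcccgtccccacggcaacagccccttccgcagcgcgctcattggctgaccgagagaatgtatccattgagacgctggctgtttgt

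Motifs of 5 factor families were searched on both strands of each window, with no overlap between matches. The cAMP response element TGACGTCA was found 51 bases before the downstream Errfi1 start and in 1.55% of all 32851 windows of this length. The ETS core CCGGAAG, of a family that ERK can activate, was found on the opposite strand 120 bases before the Egfr start and in 6.91% of all windows. The TEAD motif GGAATG, bound by the partners of YAP, was found 88 bases before the Erbb2 start and 65 bases before the upstream Errfi1 start, and in 12.6% of all windows. The AP-1 motif TGACTCA (4.46% of all windows) and the bHLH motif CAGATG (14.4%) were in none of the 7 windows, and the windows of Lrig1, Spry2 and Dusp6 held none of the 5 motifs. A match describes the letters in this window and shows no binding.

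All 8 genes were counted in cells of both suffixes, and 7 of them differed by less than 1.5-fold between the suffixes. Errfi1, whose product MIG6 binds the kinase of active receptors and switches it off, was the most abundant at 82.9 CPM (80.7 to 85.2) in suffix 1 and 96.4 CPM (93.8 to 99.2) in suffix 2. Its intervals do not overlap, but the ratio of 1.16 is under the 1.5-fold limit. Erbb3 followed at 39.8 CPM (38.2 to 41.4) and 39.2 CPM (37.5 to 41.0). Lrig1, a membrane protein that promotes the loss of ErbB receptors and marks crypt stem cells, stood at 31.0 CPM (29.6 to 32.4) and 29.3 CPM (27.8 to 30.8).

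Dusp6, the phosphatase that removes the activating phosphates from ERK, was the exception. It stood at 17.4 CPM (16.3 to 18.5) in suffix 1 and 29.3 CPM (27.8 to 30.8) in suffix 2, a ratio of 1.68 and a log2 ratio of 0.72. It was thus 1 of 8 genes called, where 3.86% of the 15474 genes with at least 10 UMIs were called in either direction. Spry2, an intracellular inhibitor of receptor tyrosine kinase signalling, stood at 13.5 CPM (12.6 to 14.4) and 13.4 CPM (12.4 to 14.4). Erbb2 reached 11.2 CPM (10.4 to 12.1) and 12.1 CPM (11.1 to 13), and Egfr 7.74 CPM (7.06 to 8.47) and 9.25 CPM (8.44 to 10.1). Spry4, a relative of Spry2, was the scarcest at 1.09 CPM (0.843 to 1.38) and 1.55 CPM (1.22 to 1.93), from 146 UMIs in all. Neighbours in this order of levels had intervals apart in both suffixes, except Lrig1 and Dusp6, and Spry2 and Erbb2, whose intervals overlapped in suffix 2. The median log2 ratio between the suffixes was 0.16 over the 8 genes and 0.03 over all genes tested.

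**Figure D1:**
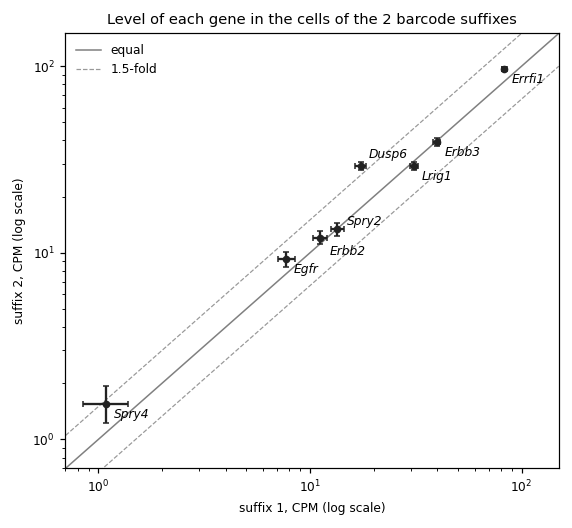
CPM of the 8 genes in the cells of suffix 1 (horizontal, log scale) and of suffix 2 (vertical, log scale), with exact Poisson 95% intervals, the line of equal levels and dashed lines at 1.5-fold. Dusp6, at 17.4 and 29.3 CPM, lies past the dashed line, and Errfi1, at 82.9 and 96.4 CPM, lies between the lines.

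The Dusp6 difference was also followed within classes, since suffix 2 held more enteroendocrine cells (13.8% against 10.7% of cells) and more enterocytes (9.85% against 5.0%). In crypt cells Dusp6 stood at 11.8 CPM (10.8 to 12.9) in suffix 1 and 17.7 CPM (16.2 to 19.2) in suffix 2, a log2 ratio of 0.55 that is just under the limit. In enteroendocrine cells it stood at 69.2 CPM (61.2 to 78.0) and 96.7 CPM (87.3 to 107), also under the limit at 0.48. It was called in enterocytes, at 22.3 CPM (17.9 to 27.5) and 36.0 CPM (31.5 to 41.0), where 4.72% of genes tested were called, and in cells of no gate, at 14 CPM (11.4 to 17) and 23.7 CPM (20.1 to 27.8), where 3.87% were. The intervals of these 4 classes were apart with suffix 2 higher. In the goblet or Paneth class the values were 14.9 CPM (7.91 to 25.4) and 12.2 CPM (6.11 to 21.9), and in the revival class 65.4 CPM (43.4 to 94.5) and 57.0 CPM (44.6 to 71.8), with overlapping intervals and few cells. Of all genes tested between the suffixes, 3.93% were called in crypt, 3.95% in enteroendocrine, 4.21% in goblet or Paneth and 4.45% in revival cells.

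Among the other genes, 1 was called within a class: Erbb3 in the revival class, at 84.1 CPM (58.9 to 116) in suffix 1 and 38.8 CPM (28.7 to 51.3) in suffix 2, where 1.92% of genes tested were called lower. Those values rest on 36 and 49 UMIs. Other ratios passed 1.5-fold with overlapping intervals, such as Errfi1 (log2 ratio 0.85) and Spry2 (1.26) in the goblet or Paneth class and Lrig1 (-0.79) in the revival class. By cell cycle range, in crypt cells and cells of no gate pooled, Dusp6 was called in cells low for both phases (15.4 and 25.6 CPM, 4.29% of genes called) and in cells high for S phase genes (9.45 and 19.0 CPM, 4.6% called). It was not called in cells high for G2 and M phase genes, at 12.7 CPM (11.5 to 13.9) and 15.1 CPM (13.3 to 17.2), where 3.76% of genes tested were called.

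By cell class, enteroendocrine cells had the highest level of 7 of the 8 genes, all but Erbb2, set beside crypt, enterocyte and ungated cells. In suffix 2 Spry2 was higher in the goblet or Paneth class, at 17.8 against 17.3 CPM. Lrig1 was nearly level there, at 33.7 CPM against 33.5 CPM in crypt and 33.4 CPM in goblet or Paneth cells. Egfr in the revival class came close, at 35.0 and 42.8 CPM. For 5 of the 7 genes, Egfr, Erbb3, Errfi1, Spry4 and Dusp6, the interval was apart from that of crypt cells in both suffixes. How many of all genes were highest in this class, or apart from crypt cells, was not computed. Enteroendocrine cells are the hormone-secreting cells of the gut epithelium, and their median depth was 14785 UMIs per cell against 35285 in crypt cells. Egfr stood at 39.9 CPM (33.9 to 46.8) in enteroendocrine cells of suffix 1 and at 5.59 CPM in all its other cells, and at 43.9 CPM (37.6 to 50.8) against 6.29 CPM in suffix 2. The log2 ratios were 2.63 and 2.62. Egfr UMIs were spread over 93 and 96 enteroendocrine cells, with 10.4% and 12.4% of them in the 3 highest cells. Of the 5 endothelial markers Pecam1 alone was detected in this class, at 31.1 and 17.3 CPM against 2.11 and 1.39 CPM in crypt cells, and Cdh5, Kdr, Emcn and Cldn5 were at 0. Goblet markers summed to 1392 and 1208 CPM against 135 and 117 CPM in crypt cells and revival markers to 505 and 421 CPM against 71.9 and 139 CPM, and their part in the differences was not tested.

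Dusp6 and Spry4 were the other 2 genes called higher in this class. Dusp6 stood at 69.2 against 13.9 CPM in suffix 1 and at 96.7 against 23.5 CPM in suffix 2, log2 ratios of 2.24 and 1.995. Spry4 stood at 5.96 CPM (3.78 to 8.95) against 0.762 CPM, and at 8.43 CPM (5.84 to 11.8) against 0.956 CPM. With 23 and 34 UMIs in the class the Spry4 values are the least precise of these. So 3 of 8 genes were called higher, where 20.9% of the 15474 genes tested were called higher and 7.24% lower. The median log2 ratio was 1.10 and 0.83 over the 8 genes, against 0.36 and 0.26 over all genes tested, a shift of the whole class that each single ratio includes.

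Erbb3 and Errfi1 fell short of the 2-fold rule in at least 1 suffix. Erbb3 stood at 88.7 CPM (79.5 to 98.6) against 36.5 CPM in suffix 1 and 69.6 CPM (61.7 to 78.3) against 36.6 CPM in suffix 2, log2 ratios of 1.26 and 0.91. Errfi1 stood at 151 CPM (139 to 164) against 78.4 CPM and at 154 CPM (142 to 166) against 91.5 CPM, log2 ratios of 0.94 and 0.74. Erbb2 went the other way in both suffixes, at 7.78 CPM (5.25 to 11.1) against 11.4 CPM and 6.69 CPM (4.41 to 9.74) against 12.5 CPM, log2 ratios of -0.50 and -0.81 that were not called. Lrig1 (40.4 and 33.7 CPM, log2 ratios 0.40 and 0.22) and Spry2 (19.96 and 17.3 CPM, log2 ratios 0.58 and 0.39) were not called.

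**Figure D2:**
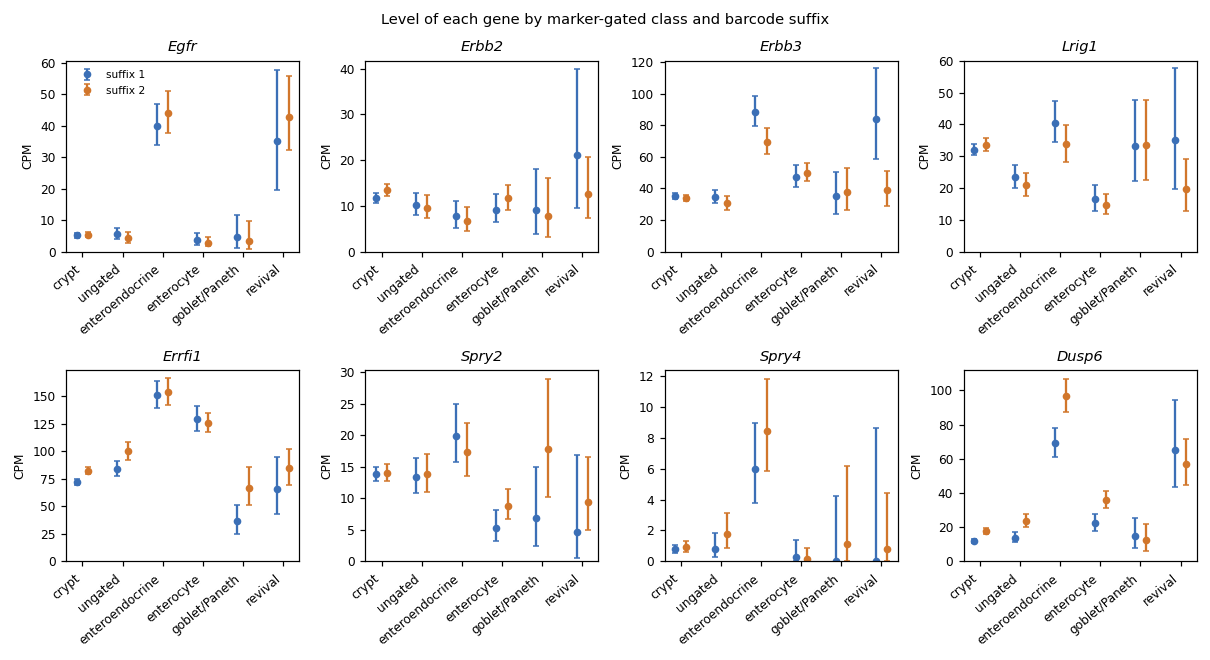
CPM of each gene (1 panel per gene, vertical axes starting at 0) by marker-gated class, with exact Poisson 95% intervals and the 2 suffixes in separate colours. Egfr lies at 39.9 and 43.9 CPM in enteroendocrine cells and at 5.11 and 5.27 CPM in crypt cells, and the intervals of the goblet or Paneth and revival classes are wide.

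Crypt cells, the class gated on stem and progenitor markers, made up 53.0% and 51.5% of all kept cells and had low levels of Egfr and Dusp6. Egfr stood at 5.11 CPM (4.46 to 5.83) in suffix 1 and 5.27 CPM (4.50 to 6.15) in suffix 2, against 14.1 and 15.3 CPM in all other cells. Dusp6 stood at 11.8 and 17.7 CPM against 30.9 and 47.0 CPM. These 2 of 8 genes were called lower, where 8.71% of genes tested were. Both calls were lost, with 0 genes called, without a mitochondrial limit, with a pseudocount of 10 CPM and with gates doubled. Lrig1 had 32.1 CPM (30.4 to 33.8) in crypt cells of suffix 1 and 33.5 CPM (31.5 to 35.6) in suffix 2, against 28.3 and 22.8 CPM elsewhere, which is under 1.5-fold. Erbb2 stood at 11.7 CPM (10.7 to 12.8) and 13.5 CPM (12.2 to 14.8), and Spry2 at 13.8 CPM (12.7 to 15) and 14 CPM (12.7 to 15.4). The other-cell group here holds the enteroendocrine class, so these ratios and those above share cells.

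In enterocytes, the absorptive cells, 0 of 8 genes met the rule in both suffixes, where 4.93% of genes tested were called higher and 9.38% lower. Under 5 of the alternatives in the closing section 1 to 3 genes were called lower, each time with Egfr among them. Egfr was at 3.54 CPM (1.94 to 5.95) and 2.83 CPM (1.68 to 4.47), Lrig1 at 16.5 CPM (12.7 to 21.0) and 14.8 CPM (11.9 to 18.1), and Spry2 at 5.32 CPM (3.29 to 8.13) and 8.81 CPM (6.65 to 11.4). Each of these 3 passed 2-fold in 1 suffix and missed it in the other. For Egfr the log2 ratios were -0.99 and -1.54, and for Lrig1 -0.92 and -1.03. Errfi1 stood at 130 CPM (119 to 141) and 126 CPM (118 to 135), with log2 ratios of 0.69 and 0.45. Spry4 had 1 UMI in enterocytes of each suffix.

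The revival class held 37 cells, and Egfr was the 1 of 8 genes called higher there, where 3.94% of genes tested were. Its level was 35.0 CPM (19.6 to 57.8) against 7.55 CPM in suffix 1 and 42.8 CPM (32.1 to 55.8) against 8.41 CPM in suffix 2. All 15 Egfr UMIs of suffix 1 came from 2 cells. Without the 3 cells richest in revival markers, Egfr was at 7.79 CPM (1.61 to 22.8) in suffix 1 and at 33.6 CPM (23.6 to 46.2) in suffix 2, and it was no longer called. Of the 8 immune markers 5 were detected in the class, with a sum of 53.7 and 51.5 CPM against 8.003 and 7.90 CPM in crypt cells, mainly from Cd14 (10 and 49 UMIs) and Cd68 (10 and 12 UMIs), while Ptprc, Cd3e and Lyz2 were at 0. Goblet markers summed to 687 and 787 CPM there, against 135 and 117 CPM in crypt cells. The part of these markers in the Egfr value was not tested. Dusp6 stood at 65.4 and 57.0 CPM against 17.0 and 28.6 CPM, a log2 ratio of 0.97 in suffix 2 that is just under 1, and at 38.9 and 38.1 CPM without those 3 cells.

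In the goblet or Paneth class 0 of 8 genes were called, where 2.07% of genes tested were. Egfr was at 4.57 CPM (1.25 to 11.7) and 3.34 CPM (0.688 to 9.76), from 4 and 3 UMIs. Errfi1 was at 36.6 CPM (25.0 to 51.6) and 66.8 CPM (50.9 to 85.9) against 72.0 CPM (69.5 to 74.6) and 82.4 CPM (79.2 to 85.7) in crypt cells, with intervals apart in suffix 1 only.

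The mix of receptor transcripts differed between classes. Erbb3 gave most of the summed UMIs of the 3 receptors in crypt cells, at 67.6% (Clopper-Pearson interval 65.6% to 69.5%) in suffix 1 and 64.5% (62.1% to 66.8%) in suffix 2. Erbb2 gave 22.6% (20.9% to 24.3%) and 25.5% (23.4% to 27.7%) there, and Egfr 9.87% (8.67% to 11.2%) and 10.0% (8.59% to 11.6%). In enteroendocrine cells the order of Egfr and Erbb2 was inverted. Egfr gave 29.3% (25.4% to 33.4%) and 36.5% (32.2% to 40.9%), and Erbb2 5.70% (3.88% to 8.04%) and 5.57% (3.70% to 8.0%). In the revival class Egfr gave 25% (14.7% to 37.9%) and 45.4% (36.2% to 54.8%) and Erbb2 15% (7.10% to 26.6%) and 13.4% (7.88% to 20.9%), so Egfr was also above Erbb2 there, with intervals apart in suffix 2 only. Without the 3 cells richest in revival markers the order turned round in suffix 1, with 3 Egfr and 7 Erbb2 UMIs, and stayed in suffix 2, with 37 and 11. Erbb3 gave 60% and 41.2% in that class, from 60 and 119 receptor UMIs. In enterocytes Erbb3 gave 78.9% (73.2% to 83.9%) and 77.6% (73.2% to 81.5%), with Egfr at 5.91% (3.27% to 9.71%) and 4.39% (2.62% to 6.85%). Egfr and Erbb2 in enteroendocrine and crypt cells therefore had shares whose intervals were apart in both suffixes.

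**Figure D3:**
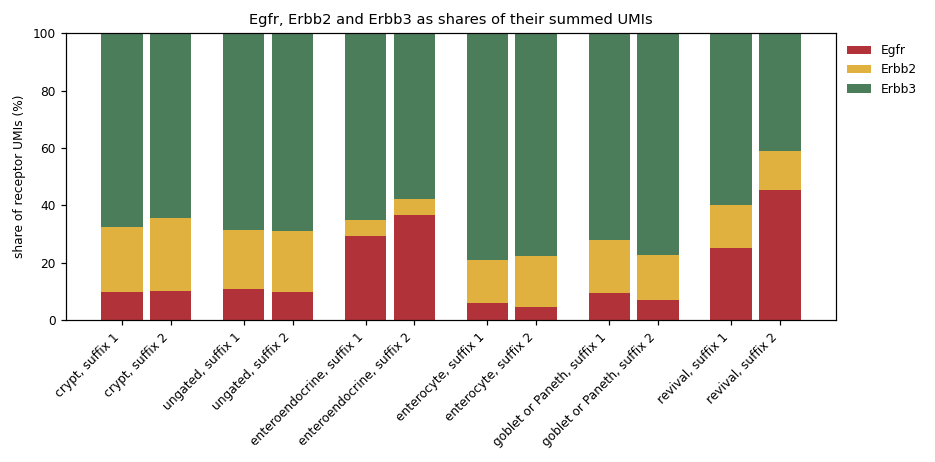
Share of the summed Egfr, Erbb2 and Erbb3 UMIs given by each receptor gene (vertical axis, percent), as stacked bars by class and suffix. The Egfr part is 9.87% and 10.0% in crypt cells and 29.3% and 36.5% in enteroendocrine cells, and the Erbb2 part is smallest in enteroendocrine cells.

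Free RNA from broken cells can place UMIs of one class in another. Chgb, a granule gene of enteroendocrine cells, gauged this: its level in crypt cells was 0.111% of its enteroendocrine level in suffix 1 and 0.135% in suffix 2. The same ratio was 12.8% and 12.0% for Egfr, 13.1% and 10.8% for Spry4 and 17.0% and 18.3% for Dusp6. At the Chgb ratio, enteroendocrine RNA would give 0.0443 and 0.0591 CPM of Egfr in crypt cells, against 5.11 and 5.27 CPM counted. Chgb is itself a marker of the enteroendocrine gate, which crypt cells did not pass, so the gating limits its level there. The part of free RNA in the crypt values was not tested. With each cell thinned to 2000 UMIs, Egfr was expected in 7.05% (4.18% to 11%) and 7.62% (4.62% to 11.7%) of enteroendocrine cells and in 1.03% (0.545% to 1.77%) and 1.03% (0.481% to 1.92%) of crypt cells. Chgb itself was expected in 9.55% and 8.71% of crypt cells at this depth. The shares of Egfr, Erbb3, Errfi1 and Dusp6 were higher in enteroendocrine than in crypt cells by intervals apart in both suffixes. How many of all genes did so was not computed. Unthinned, an Egfr UMI was present in 15.4% and 17.3% of all kept cells, and median depths before thinning were 14500 and 15183 UMIs in enteroendocrine and 36376 and 33203 in crypt cells.

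Within the enteroendocrine class, cells rich in Neurog3, the transcription factor of endocrine progenitors, were set beside cells low in Neurog3 that had UMIs of Tph1, the enzyme of serotonin synthesis, called Neurog3-low Tph1 cells here. Both groups held Tph1, at 1458 and 1878 CPM in Neurog3-rich and 1186 and 1993 CPM in Neurog3-low Tph1 cells, so that gene does not separate them. Neurog3 stood at 1095 and 1389 CPM against 17.3 and 9.82 CPM, and the granule gene Chga at 1269 and 2051 CPM against 10864 and 15778 CPM. This split was added after the class values had been seen. There were 87 and 58 Neurog3-rich cells, 108 and 100 Neurog3-low Tph1 cells and 50 and 85 others. Egfr stood at 20.1 CPM (13 to 29.6) and 22.5 CPM (13.1 to 36.0) in Neurog3-rich cells and at 55.9 CPM (45.3 to 68.2) and 72.4 CPM (59.9 to 86.7) in Neurog3-low Tph1 cells. In the other enteroendocrine cells it stood at 36.5 CPM (25.0 to 51.5) and 25.5 CPM (18.4 to 34.4). All 3 groups thus lay above the crypt level. By the 2-fold rule Egfr was the 1 of 8 genes called between Neurog3-low Tph1 and Neurog3-rich cells, where 1.18% of genes tested were called higher.

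The inhibitors differed among themselves across these cells, with Errfi1, like Egfr, highest in Neurog3-low Tph1 cells. Errfi1 was at 119 CPM in Neurog3-rich cells of both suffixes and at 189 CPM (169 to 211) and 228 CPM (205 to 252) in Neurog3-low Tph1 cells, with intervals apart and log2 ratios of 0.66 and 0.93 that pass 1.5-fold but not 2-fold. Spry2 went the opposite way, at 28.9 CPM (20.2 to 40.03) and 39.7 CPM (26.8 to 56.7) in Neurog3-rich cells and 15 CPM (9.78 to 22.0) and 10.4 CPM (6.08 to 16.7) in Neurog3-low Tph1 cells, with intervals apart in suffix 2 only. Spry4 was lowest in the other enteroendocrine cells, at 2.28 CPM (0.276 to 8.25) and 1.21 CPM (0.147 to 4.38), from 2 UMIs each. Dusp6 was high in all 3 groups, between 57.0 and 107 CPM. Erbb2 was low in all 3, between 4.91 and 8.49 CPM.

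**Figure D4:**
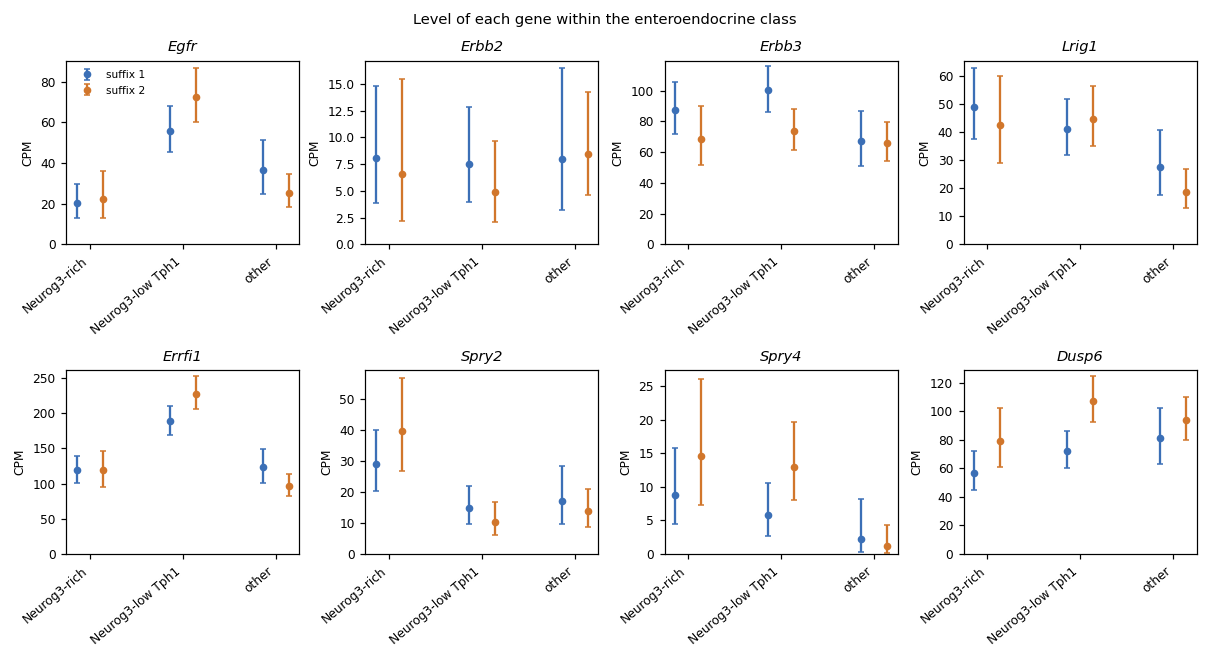
CPM of each gene (vertical axes starting at 0) in Neurog3-rich, Neurog3-low Tph1 and other enteroendocrine cells, by suffix, with exact Poisson 95% intervals. Egfr and Errfi1 are highest in Neurog3-low Tph1 cells of both suffixes (Egfr 55.9 and 72.4 CPM), while Spry2 is highest in Neurog3-rich cells (28.9 and 39.7 CPM).

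The other genes of the pathway were followed through a list of 60, of which 57 had at least 10 UMIs. In enteroendocrine cells 14 were called higher and 5 lower, shares near the 20.9% and 7.24% of all genes tested, so the counts show nothing particular to the list. Among 16 further inhibitors 7 were higher and 1 lower: Spred3, a RAS pathway inhibitor, stood at 27.7 and 20.6 CPM against 1.33 and 1.42 CPM, Dusp5, a nuclear ERK phosphatase, at 212 and 249 CPM against 34.8 and 47.8 CPM, and Cblb, a ubiquitin ligase for receptors, at 31.9 and 25.8 CPM against 5.31 and 5.12 CPM. The 1 lower, named after its value was seen, was Lrig3, a relative of Lrig1, at 6.22 and 8.43 CPM against 20.5 and 19.0 CPM. Of the ligands, Nrg1, which binds ERBB3, stood at 13.7 and 14.6 CPM against 0.0519 and 0.0637 CPM. Areg and Btc, which bind EGFR, were lower, with Areg at 32.1 and 49.6 CPM against 148 and 401 CPM. Genes that respond to ERK were mixed, with Egr1 (1113 and 1091 CPM against 235 and 301 CPM) and Etv5 higher and Ccnd1 and Myc lower. Of the 22 adaptor and core genes 4 were higher, and Pik3r1, a PI3K subunit, was at 274 and 301 CPM against 62.7 and 54.1 CPM. The median log2 ratio of the list was 0.65 and 0.42, against 0.36 and 0.26 over all genes.

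In enterocytes 2 list genes were higher and 4 lower, where 4.93% and 9.38% of all genes tested were. Areg, an EGFR ligand, stood at 795 and 1138 CPM against 96.4 and 265 CPM, and Nrg4, a ligand of ERBB4, at 7.09 and 5.03 CPM against 1.08 and 1.05 CPM. Etv4 and Etv5, transcription factors that ERK induces, were lower, with Etv4 at 5.06 and 3.93 CPM against 21.2 and 24.6 CPM. In the revival class 9 were higher and 1 lower, where 3.94% and 1.77% of all genes tested were, among them the ligands Areg (1308 and 1628 CPM against 133 and 342 CPM), Btc, Tgfa and Ereg and the ERK-responsive genes Ier3, Fosl1 and Ccnd1. In crypt cells 0 were higher and 4 lower (Areg, Nrg1, Spred3 and Dusp5), where 0.439% and 8.71% were. Between the suffixes 6 list genes were higher in suffix 2, where 2.46% of all genes tested were, and 0 lower. These were the ligands Areg (141 and 374 CPM), Hbegf (111 and 180 CPM) and Btc (12.8 and 24.5 CPM), the inhibitor Spry1 (10.8 and 17.4 CPM) and the ERK-responsive genes Fosl1 and Epha2. By class, these 3 ligands were each called higher in suffix 2 in crypt, goblet or Paneth and ungated cells, where Dusp6 was called in ungated cells only. In enterocytes, where Dusp6 was called, none of the 3 was, with log2 ratios of 0.52 for Areg, 0.26 for Hbegf and 0.29 for Btc. In enteroendocrine cells Areg alone was called higher, and in the revival class Hbegf was called higher and Btc lower. The all-cell ratio of Areg also includes the larger share of enterocytes in suffix 2, 9.85% against 5.0%.

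In a split added after seeing the data, crypt cells were divided into 3 ranges of equal size by their summed level of 10 immediate early genes, which include none of the 8 genes and none of the pathway list. Errfi1 and Dusp6 were called higher in the highest range, 2 of 8 genes where 2.01% of genes tested were. Errfi1 stood at 41.1 CPM (37.9 to 44.4), 63.5 CPM (59.5 to 67.7) and 116 CPM (110 to 122) in the lowest, middle and highest range of suffix 1. In suffix 2 it stood at 37.1 CPM (33.5 to 41.0), 83.2 CPM (77.8 to 88.9) and 129 CPM (122 to 137). Dusp6 stood at 6.94, 11.6 and 17.4 CPM in suffix 1, and at 8.52, 21.3 and 23.6 CPM in suffix 2. The intervals of its middle and highest ranges overlap in suffix 2. Median depth in these 6 groups of cells ran from 32062 to 37503 UMIs and the median mitochondrial share from 8.56% to 10.2%, and their part in the differences was not tested. The lowest range ended at 12.7 immediate early UMIs per 10000 in suffix 1 and at 15.2 in suffix 2, and the highest began at 21.4 and 30.7.

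The receptors and Lrig1 were not called across these ranges. Egfr was at 4.63 CPM in the lowest and 6.16 CPM in the highest range of suffix 1, and at 6.32 and 4.75 CPM in suffix 2, with overlapping intervals. Erbb2 was at 11 and 12 CPM, and at 14.8 and 11.9 CPM. Erbb3 was at 31.5 and 40.4 CPM, and at 29.7 and 35.3 CPM. Lrig1 was at 31.4 and 32.4 CPM in suffix 1 and at 38.4 CPM (34.7 to 42.4) and 27.6 CPM (24.4 to 31.1) in suffix 2, where the intervals were apart with the highest range lower. Spry2 was at 11 and 16.6 CPM, and at 10.3 and 15.8 CPM, intervals apart in both suffixes, with log2 ratios of 0.55 and 0.56 that are just under the limit. Of the 54 list genes tested, 10 were higher and 0 lower, where 2.01% and 0.136% of all genes tested were. Of these, 5 are ERK-responsive genes, Fos, Egr1, Fosl1 and Ier3 among them, which include immediate early genes like those that define the ranges. The others are the inhibitors Spry1, Dusp4 and Dusp5 and the ligands Areg and Hbegf.

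**Figure D5:**
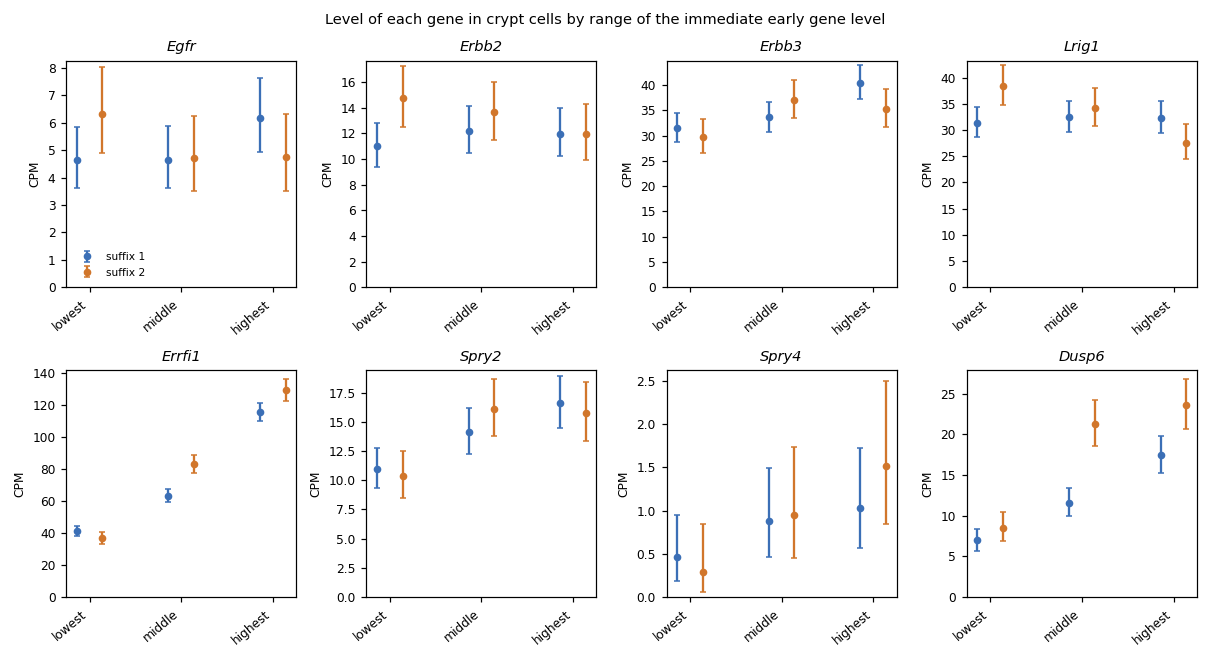
CPM of each gene (vertical axes starting at 0) in crypt cells of the lowest, middle and highest range of the immediate early gene level, by suffix, with exact Poisson 95% intervals. Errfi1 goes from 41.1 to 116 CPM in suffix 1 and from 37.1 to 129 CPM in suffix 2, and Dusp6 from 6.94 to 17.4 CPM and from 8.52 to 23.6 CPM, while the Egfr and Erbb2 intervals overlap.

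The same 2 genes were called when crypt cells were split by the summed level of 7 EGFR ligands, 2 of 8 where 1.47% of genes tested were. Errfi1 stood at 45.3 CPM (41.9 to 48.9) in the lowest and 110 CPM (105 to 116) in the highest range of suffix 1, and at 46.5 CPM (42.4 to 50.9) and 118 CPM (112 to 125) in suffix 2. Dusp6 stood at 7.97 CPM (6.59 to 9.56) and 15.3 CPM (13.3 to 17.5), and at 9.16 CPM (7.39 to 11.2) and 25.9 CPM (23.0 to 29.2). Areg and Hbegf, which are on the ligand list, were also higher in the highest immediate early range, so the 2 splits are not separate evidence. Egfr was at 5.09 and 5.06 CPM, and at 6.40 and 4.31 CPM. Over all kept cells in place of crypt cells, 5 of 8 genes were called between immediate early ranges (15.8% of genes tested higher) and 1 of 8, Errfi1, between ligand ranges (3.79% higher). Those ranges hold different classes and depths. Enteroendocrine cells made up 25.1% and 30.6% of the highest immediate early range and 2.22% and 2.38% of the lowest, with median depths of 19640 and 22108 against 34776 and 31128 UMIs. They made up 3.66% and 1.87% of the highest ligand range and 15.5% and 25.5% of the lowest.

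Cell cycle ranges were compared in crypt cells and cells of no gate pooled. None of the 8 genes met the rule in both suffixes, neither between cells high for S phase genes and cells low for both phases (3.58% of genes tested called) nor between cells high for G2 and M phase genes and low cells (3.67% called). Erbb3 had intervals apart in both suffixes, at 43.8 CPM (38.2 to 49.9) in low and 26.4 CPM (22.2 to 31.2) in S-high cells of suffix 1, and at 39.6 CPM (35.3 to 44.3) and 28.0 CPM (24.6 to 31.7) in suffix 2. The log2 ratios were -0.71 and -0.49, the second under the limit. Errfi1 also had intervals apart in both, at 86.2 CPM (78.3 to 94.6) and 66.7 CPM (59.9 to 74.1), and at 99.3 CPM (92.4 to 107) and 82.8 CPM (76.9 to 89.0), under the fold limit. In G2 and M-high cells Errfi1 was at 71.9 CPM (69.1 to 74.8) and 76.3 CPM (72.1 to 80.7), again apart from low cells in both suffixes. Between S-high and low cells Spry4 passed the fold limit at -0.99 and -0.64, with overlapping intervals. Lrig1 was at 30.5 and 19.9 CPM in suffix 1 and 28.3 and 25.8 CPM in suffix 2. Over all kept cells 4 of 8 genes were called lower in S-high cells (17.9% of genes tested lower) and 4 in G2 and M-high cells (18.4%), and the low range of that split holds the enteroendocrine cells.

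Across the 12 sums of 6 classes and 2 suffixes, the 28 pairs among the 8 genes had Pearson correlations of log2(CPM + 1) from -0.63, for Erbb2 and Spry4, to 0.86, for Egfr and Dusp6. Erbb3 and Dusp6 reached 0.81 and Spry2 and Spry4 0.77. The 12 points come from 1 deposited matrix and differ in depth. Across single cells the same pairs ran from -0.13 to 0.19, which in counts this sparse is no finding. Among the 7344 genes with at least 10 CPM, the profile most like that of Egfr was that of Otub1 (0.97), followed by Tmem248 and Plekhg3 (0.97 each). For Dusp6 it was Nbeal1 (0.97), Unc45a and Lrp10, for Erbb3 Xpr1 (0.96), Crebrf and Trip11, and for Errfi1 Coprs (0.96), Dynll2 and B4galt6. For Spry4 it was Ubap2l (0.96), N4bp2l2 and Stk40, for Lrig1 Rbm26 (0.95), Phf14 and Xist, for Erbb2 Adss (0.94), Clpp and Glo1, and for Spry2 Fbxo31 (0.93), Meaf6 and Tle1. The best value was at least 0.93 for each of the 8 genes, which is the highest of 7344 candidates over 12 points.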

How the data were processed

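Single-cell 3′ RNA libraries were processed by the authors with Cell Ranger 3.1.0, STAR 2.7.3a and bcl2fastq 2.20.0, per the submitters' processing notes; the genome build and annotation are not given in the sources used here. The deposited matrix holds raw UMI counts per gene and barcode, with no normalization. The 3 files of each of the 2 samples were identical and were used once.

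Kept barcodes had 500 or more genes, 1000 or more UMIs and a mitochondrial share of no more than 20%; they hold 61628537 UMIs of suffix 1 and 51111519 of suffix 2. Cells of at least 5000 UMIs were gated on marker UMIs per 10000: 50 for enteroendocrine, 100 for enterocyte, 75 for goblet or Paneth, 15 for revival, 5 for tuft and, below all these, 5 for crypt. Within 20% of a gate lay 619 cells for crypt, 17 for enteroendocrine, 61 for enterocyte, 61 for goblet or Paneth and 27 for revival. S-high cells had at least 10, and G2 and M-high cells at least 20, phase list UMIs per 10000. Neurog3-rich cells had at least 2 Neurog3 UMIs per 10000, and Neurog3-low Tph1 cells fewer of these and at least 2 Tph1 UMIs per 10000. Scrublet in scanpy 1.11.5 called 7 of 2300 and 7 of 1766 cells doublets, too few to rely on, so none were removed. Of the 77 cells labelled mixed, 52 passed the enteroendocrine and the goblet or Paneth gate, and all 77 counted as other cells in the enteroendocrine comparison.

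Sums over cells were scaled to CPM with Python 3.11.15, numpy 2.4.6 and scipy 1.17.1. Ratios used CPM plus 1, which understates those of low genes, over all genes with at least 10 UMIs in the cells compared. Only the size rule between the suffixes was tested on simulated counts, drawn with counting error alone. The rules for classes and ranges were not. All 8 genes are named by rule, with up to 4 further pathway genes per role that met the size rule and the 3 most similar profiles of each gene. The genes, lists, gates and rules were chosen with earlier results of these data known. Alternatives covered the mitochondrial limit, the gene minimum, averaging CPM per cell, doublet scores, the UMI total, the pseudocount, the gates, the phase call and the range width. With CPM averaged per cell the interval rule was not applied.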

Additional observations from a re-analysis of the deposited data

Results flagged for a closer look

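Barcodes above the mitochondrial limit, 10018 of suffix 1 and 7397 of suffix 2, enter no comparison above, and all 8 genes had UMIs there above the limit that a count of 0 allows. In CPM of non-mitochondrial UMIs, Erbb2 stood at 35.1 in suffix 1 and 44.1 in suffix 2, against 12.4 and 13.4 in kept cells, ratios of 2.83 and 3.30. Lrig1 stood at 67.2 and 83.6 against 34.3 and 32.4, ratios of 1.96 and 2.58. Errfi1 stood at 152 and 207 against 91.9 and 107, and Erbb3 at 60.7 and 61.4 against 44.1 and 43.5. Spry2 stood at 17.1 and 20 against 14.96 and 14.8, Egfr at 10.1 and 11.3 against 8.58 and 10.3, and Dusp6 at 21.3 and 29.0 against 19.3 and 32.4. Spry4 stood at 1.03 and 1.61 against 1.205 and 1.71. The intervals overlapped for Egfr, Dusp6 and Spry4 in both suffixes and for Spry2 in suffix 1, and were apart for the others. These barcodes were left out by the filter on mitochondrial share, whose part in the ratios was not tested. The same ratios over all genes were not computed, so none of the 8 genes is shown to differ from genes in general.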

How the results depend on the processing

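No paired analysis was possible because the deposited files hold 1 matrix with no replicates. No called ratio of a gene changed sign under any alternative tried, and 488 of 546 log2 ratios moved by less than 0.58. Levels were less stable: 45 of 96 CPM values of the 8 genes per suffix left their counting interval, 16 of 16 with mitochondrial and ribosomal UMIs out of the total, 14 with CPM averaged per cell, 10 without a mitochondrial limit and 5 with a limit of 10%. Of 156 counts of genes called or ordered, 131 stayed within 1.5-fold. In enteroendocrine cells Egfr and Dusp6 were called under every alternative run on them, Spry4 was lost with a pseudocount of 10 CPM, and Erbb3 was added with a mitochondrial limit of 10%. Dusp6 stayed called between the suffixes except with a pseudocount of 10 CPM, where 0 genes were called (log2 ratio 0.52). Enterocyte calls, 0 above, were 2 with CPM averaged per cell, 2 with mitochondrial and ribosomal UMIs out of the total, 1 without the top doublet scores, 1 with a pseudocount of 0.1 CPM and 3 with gates doubled, always lower and with Egfr among them. Revival calls were 2 with a mitochondrial limit of 10%, without a limit and with gates doubled, where Dusp6 joined Egfr, and 0 without the 3 cells richest in revival markers, an alternative added after seeing the data, as were the ranges within crypt cells, the Neurog3-low Tph1 and Neurog3-rich cells and the counting of mixed cells as enteroendocrine. Crypt calls were 0 without a mitochondrial limit, with a pseudocount of 10 CPM and with gates doubled. Averaging CPM per cell gave 1 goblet or Paneth call (Egfr) and 1 S-high call (Spry4), both lower. Under that alternative calls went by fold alone with no interval rule, the 2 enterocyte calls included. The scanpy phase call gave 1 for S-high (Erbb3) and 1 for G2 and M-high cells (Dusp6), both lower. Over all cells, the 4 S-high calls were 2 and the 4 G2 and M-high calls 0 without a mitochondrial limit, and the latter 2 with a pseudocount of 10 CPM. That pseudocount left 3 of 5 immediate early calls and 1 of 2 ligand calls in crypt cells (Errfi1), as did doubled gates for the latter. Ligand calls over all cells were 2 with a 10% limit and with a pseudocount of 0.1 CPM, where Egfr was lower. The cause of these changes was not tested. Depth limits Spry4 most, with 146 UMIs, and all revival and goblet or Paneth values.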
